A study of Mus musculus with 8 samples.

Results

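Replication origin licensing and firing was followed here through 32 genes, chosen by name from their known functions, out of 52224 genes in the deposited table. All 32 were present, and all 32 passed the filter on low values. They were grouped by role into the origin recognition complex (6 genes), the loading factors and their inhibitor (3 genes), the MCM2-7 helicase (6 genes), 4 other MCM-named genes, CDC45 and GINS (5 genes), the kinase with its activator (2 genes) and the firing factors (6 genes).

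The samples were hematopoietic stem cells of mouse bone marrow, sorted as CD48-CD150+ cells of the LSK (lineage-negative, Sca-1+, Kit+) fraction. There were 4 RNA-seq libraries of the genotype DekTg and 4 of the genotype DekCon. The labels give no allele, promoter, age or treatment beyond these genotype names, and do not say whether the libraries come from separate mice, so p-values reflect the spread between the 8 libraries alone, part of which may be technical. The study concerns DEK, a chromatin-bound protein, in relation to replication stress and stem cell function in Fanconi anemia, and the comparison here is DekTg against DekCon.

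Before S phase, the origin recognition complex marks replication origins and, with CDC6 and CDT1, loads the ring-shaped MCM2-7 helicase onto DNA in an inactive form, a step called licensing. In S phase the kinase CDC7 with DBF4, together with cyclin-dependent kinases and the firing factors, lets CDC45 and the GINS complex join MCM2-7, which makes the active helicase. Most adult hematopoietic stem cells are quiescent, and licensing genes are in general expressed at higher levels in cycling cells.

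Values are normalized read counts, that is, reads per gene divided by one size factor per library, with no division by gene length. Recovered reads per library, in units of 1000000, were 2.64 to 3.59 in DekTg, against 2.53 to 4.10 in DekCon. The 32 genes held between 7550 and 9614 reads per DekTg library and between 7330 and 13710 reads per DekCon library, and single genes had from 12 to 2367 reads. Dek was listed at 1862 to 2710.3 in DekTg and 395 to 632 in DekCon, but its DekTg values, like some of 5 other genes (Cdc20, Cdk1, Fos, Ifit2 and Csf2), were not whole numbers of reads, so this check of the genotype does not rest on counts. None of the 32 origin genes was affected. The stem cell genes Kit (1181 to 1557 in DekTg, 1072 to 1396 in DekCon) and Slamf1, which encodes CD150 (190.04 to 213 in DekTg, 228 to 300.4 in DekCon), were present in every library, and so was Cd48 (174 to 229.99 in DekTg, 128 to 258.6 in DekCon), whose protein the sort selected against.

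Of markers of other cells, all 10 genes of a B lymphoid and plasma list lay above 0 in log2 fold change, with summed levels of 4580 to 5406 in DekTg and 498 to 1274 in DekCon. Igkc and Jchain were higher past the threshold, as were 3 of 10 erythroid genes (Hba-a1, Hba-a2 and Hbb-bs; list sums 634 to 959.7 in DekTg and 216 to 1606 in DekCon). Of the other erythroid genes, Epor had a log2 fold change of -1.06 and Klf1 one of -0.89, and neither passed. No gene of either list was at 0 in all libraries. In bulk samples fewer cells of a type and less RNA per cell cannot be told apart. All 7 genes of a megakaryocyte list lay below 0 and none passed (list sums 2051 to 3397 in DekTg and 2666 to 9453 in DekCon). Of 10 granulocyte and monocyte genes 7 lay below 0 and none passed (list sums 3065 to 13372 in DekTg and 4808 to 11579 in DekCon). Among those below 0 were Mpo at -0.90, Elane at -0.96 and Prtn3 at -0.47. Above 0 lay Itgam at 0.54, Lyz2 at 0.26 and Csf1r at 0.16. The highest DekTg sum was that of DekTg replicate 3, where S100a8 was at 4181, against 98.7 to 592 in the other DekTg libraries. Flt3 (0.73) and Il7r (0.38), which mark progenitors outside the sorted fraction, lay above 0 and did not pass. Mitochondrial genes held 3.25 to 3.66% of the summed values in DekTg and 2.69 to 3.34% in DekCon. The part of these markers in the results below was not tested.

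No gene of origin licensing or firing passed the threshold between DekTg and DekCon, and 28 of 32 lay lower in DekTg, by small amounts. The comparison used limma on log2(value + 1), two-sided, with p-values adjusted over the 37414 genes tested and called under 0.05. Over all genes 13 passed, or 0.0347%, and 3 of them, or 0.00802%, were lower in DekTg. Without the 6 genes with values that are not whole reads, 8 passed and 1 of them was lower. The smallest adjusted p among the 32 was 0.711 by limma, 0.671 by edgeR and 0.91 by DESeq2 without independent filtering. With that filtering, which left 13 of the 32 with an adjusted p, DESeq2 gave 0.238. In all, 0 of 32 passed with any of the 3 tools. At an unadjusted p under 0.05 there were 7, all lower in DekTg (Gins2, Cdc6, Cdc7, Gmnn, Mcmbp, Mcm3 and Orc6), where 3.78% of all genes were lower at that level, 3.15% higher and 6.93% either. Among the 7602 genes with a mean value of at least 100, 9.58% were lower at that level, and 6 of the 23 origin genes above that mean were. EdgeR gave 8 of the 32 at that level and DESeq2 gave 7, where 2448 and 1624 of all 37409 genes were, in either direction.

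The median log2 fold change of the 32 genes was -0.25, against 0.01 over all genes tested and -0.10 over genes with a mean of at least 100. Log2 fold changes below 0 were found for 28 of 32 origin genes, for 49.4% of all genes and for 71.0% of the genes with a mean of at least 100. Much of the difference went with a single library. Without DekCon replicate 2 the median was -0.10 over the 32 genes and -0.07 over genes with a mean of at least 100, 25 of 32 genes lay below 0, and 2 had an unadjusted p under 0.05. That count was also 2 without DekTg replicate 1 and 3 without DekTg replicate 4, and it was 11 without DekTg replicate 2 and 10 without DekCon replicate 4. It was 4 with total scaling or quantile normalization, and 1 with limma without a trend in the variance. Over all 37414 genes the count, in either direction, was 2593 as reported and 1937 without DekCon replicate 2. It was 2119 without DekTg replicate 1, 2222 without DekTg replicate 4, 3167 without DekTg replicate 2 and 2462 without DekCon replicate 4. With total scaling it was 2652, with quantile normalization 2343 and without the trend 2301. Leaving out DekCon replicate 2 moved the log2 fold change of 22 of the 32 genes by over 1.5 times.

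The intervals bound what could have been missed. In 31 of 32 genes the 95% interval of the log2 fold change lay above -1, a 2-fold lower level, and in all 32 it lay below 1. The exception was Orc1, whose interval reached -1.02.

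**Figure D1:**
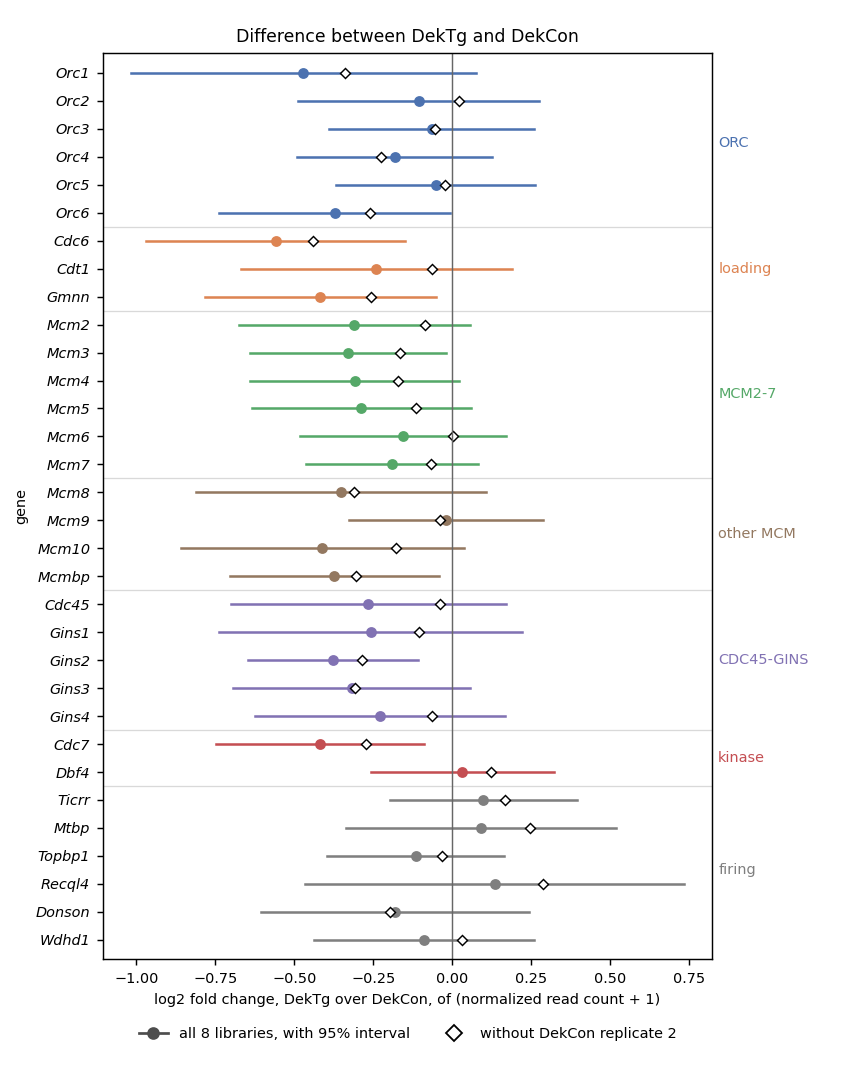
Log2 fold change of DekTg over DekCon (horizontal axis, on values plus 1) for each of the 32 genes (vertical axis, grouped by role), with filled circles and 95% intervals for all 8 libraries and open diamonds without DekCon replicate 2. The 28 filled circles left of 0 lie between -0.56 (Cdc6) and -0.02 (Mcm9), and most diamonds sit nearer to 0.

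Per kilobase of exon, the helicase transcripts stood on average above those of the proteins that load and activate the helicase. Mcm6 was the highest of all, at 315 ± 41 per kilobase in DekTg and 356 ± 87 in DekCon (SD, n = 4 each). It was followed by Mcm3 (178 ± 11 in DekTg, 228 ± 57 in DekCon) and Mcm7 (157 ± 3.38 in DekTg, 181 ± 34 in DekCon). The 6 MCM2-7 genes and Mcmbp held the first 7 places averaged over 8 libraries, also when the longest coding transcript was used in place of all exons. The median of the role group was 138 per kilobase in DekTg and 164 in DekCon for MCM2-7, against 36.8 in DekTg and 39.0 in DekCon for the origin recognition complex. For the firing factors it was 15.4 in DekTg and 14.7 in DekCon. Recql4, a helicase-family protein needed for firing, was the lowest, at 5.60 ± 1.6 in DekTg and 5.02 ± 1.31 in DekCon. Neighbours in this order mostly overlapped: the ranges of 26 of 31 neighbouring pairs met in DekTg and of 29 in DekCon. In DekTg, Mcm6, Mcm3 and Mcm7 followed one another without overlap, but with the longest coding transcript Mcm7 stood above Mcm3 on average.

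**Figure D2:**
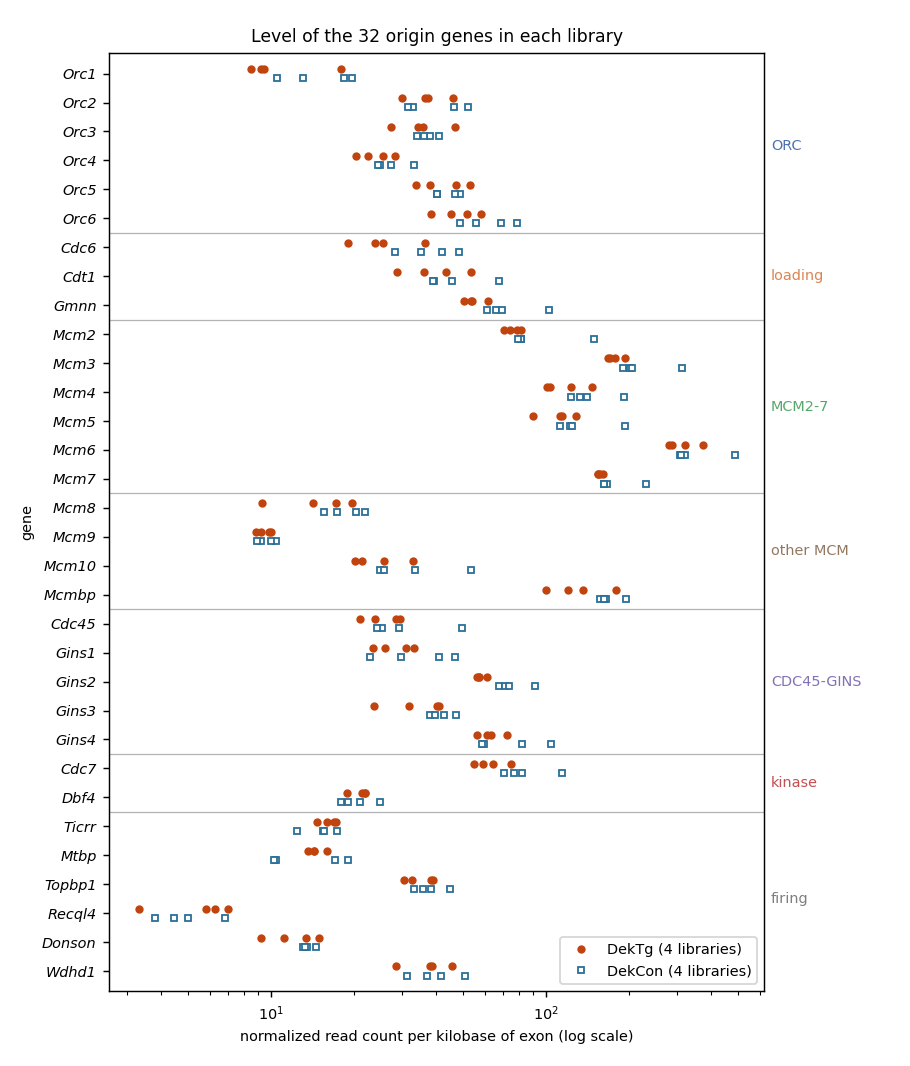
Normalized read count per kilobase of exon (horizontal log axis) for each of the 32 genes (vertical axis, by role), one point per library, with filled circles for DekTg and open squares for DekCon. On average the MCM2-7 genes and Mcmbp lie furthest right. The ranges of Mcm2, Mcm4, Mcm5 and Mcmbp meet those of Cdc7, Gins4 and Gmnn, and that of Mcm2 reaches down to that of Orc6. The rightmost square of every MCM2-7 gene is DekCon replicate 2.

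The origin recognition complex is the platform on which licensing begins. All 6 of its transcripts had log2 fold changes below 0, with a median of -0.14, and none passed. Orc6, a subunit needed for MCM loading, had normalized read counts of 128, 143, 112 and 94.5 in DekTg replicates 1 to 4, against 120.4, 193, 169.6 and 138 in DekCon replicates 1 to 4. The groups overlapped through DekTg replicates 1 and 2 and DekCon replicates 1 and 4, and Orc6 had a log2 fold change of -0.37 (SE 0.17, limma adjusted p = 0.711). Orc1, the largest subunit and in cultured human cells one that is destroyed after S phase begins, had 33.0, 62.5, 32.02 and 29.4 in DekTg, against 36.8, 68.9, 64.1 and 45.5 in DekCon. DekTg replicate 2 was high and the other 3 DekTg libraries lay below every DekCon library. Orc1 had a log2 fold change of -0.47 (SE 0.26, limma adjusted p = 0.749), and -0.71 without DekTg replicate 2. Orc4, an ATP-binding subunit, had 168, 211, 191 and 152 in DekTg, against 247, 186, 184 and 204 in DekCon, with overlapping groups and a log2 fold change of -0.18 (SE 0.15), or -0.09 without DekCon replicate 1 and -0.10 without DekTg replicate 4. The remaining subunits were nearer to 0 and overlapped in part. Orc2 values were 115 to 178 in DekTg, against 122 to 201 in DekCon (log2 fold change -0.11, 95% interval -0.49 to 0.27). Orc3 values were 166 to 285 in DekTg, against 207 to 248 in DekCon (-0.07, -0.39 to 0.26). For Orc5 they were 208 to 326 in DekTg, against 249 to 300.4 in DekCon (-0.05, -0.37 to 0.26).

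Cdc6 had the log2 fold change furthest from 0 of the 32, though it did not pass. Orc1 lay further from 0 than Cdc6 without DekCon replicate 1 (-0.64 for Orc1 and -0.59 for Cdc6) and marginally so with quantile normalization. CDC6 is the ATPase that joins the origin recognition complex to load MCM2-7. Its counts were 125, 189.8, 134 and 99.7 in DekTg, against 184, 253, 219.5 and 148 in DekCon. Again DekTg replicate 2 was the high one, and the other 3 DekTg libraries lay below all 4 DekCon libraries. Cdc6 averaged 137 ± 38 in DekTg and 201 ± 45 in DekCon (SD, n = 4 each), with a log2 fold change of -0.56 (SE 0.19, limma adjusted p = 0.711). It stayed between -0.73 and -0.42 over the alternatives, with an adjusted p of 0.302 to 0.956.

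CDT1 brings MCM2-7 to the origin, and geminin, the product of Gmnn, binds CDT1 and blocks loading once S phase has begun. Cdt1 had 113, 90.1, 136 and 168 in DekTg, against 123, 211, 143 and 122 in DekCon, and the groups overlapped. Its log2 fold change was -0.24 (SE 0.20), and -0.06 without DekCon replicate 2 and -0.09 without DekTg replicate 2. Gmnn had 78.3, 90.1, 73.8 and 78.7 in DekTg, against 96.3, 150.2, 102 and 89.5 in DekCon. Only DekTg replicate 2 and DekCon replicate 4 crossed, by under 1 unit, at a log2 fold change of -0.42 (SE 0.17, limma adjusted p = 0.711), or -0.26 without DekCon replicate 2. The log2 ratio of Cdt1 to Gmnn within a library was 0.53, 0.00, 0.88 and 1.09 in DekTg replicates 1 to 4, against 0.35, 0.49, 0.49 and 0.45 in DekCon. The ratio was nearly the same in the 4 DekCon libraries and spread widely in DekTg, around overlapping means of 0.63 ± 0.48 in DekTg and 0.45 ± 0.07 in DekCon (SD, n = 4 each).

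The 6 genes of the MCM2-7 ring all lay lower in DekTg, with a median log2 fold change of -0.30, or -0.10 without DekCon replicate 2, which was the highest of the 8 libraries for each of the 6. With quantile normalization Mcm6 was at 0.03 and Mcm7 at -0.01, and the other 4 genes, Mcm2, Mcm3, Mcm4 and Mcm5, were between -0.18 and -0.13. Mcm2 had 564, 490.1, 516 and 546 in DekTg, against 564, 1040.2, 567 and 553 in DekCon. Apart from DekCon replicate 2 the libraries of both genotypes lay close together, and the log2 fold change was -0.31 (SE 0.17) with that library and -0.09 without it. Mcm3 had 642, 631, 725 and 672 in DekTg, against 761, 1175, 772 and 714 in DekCon. Only DekTg replicate 3 and DekCon replicate 4 crossed, at a log2 fold change of -0.33 (SE 0.15, limma adjusted p = 0.711), or -0.17 without DekCon replicate 2. Mcm4, whose protein carries a tail phosphorylated by CDC7, had 361, 529, 443 and 373 in DekTg, against 506, 693, 479.6 and 442 in DekCon. DekTg replicates 2 and 3 reached into the DekCon range (log2 fold change -0.31, SE 0.16, and -0.17 without DekCon replicate 2).

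Mcm5, which with MCM2 forms the gate of the ring, had 451, 358, 512 and 459 in DekTg, against 491, 772, 498 and 448 in DekCon (log2 fold change -0.29, SE 0.16, and -0.12 without DekCon replicate 2). DekTg replicate 3 exceeded 3 DekCon libraries. For Mcm6 the counts were 1312, 1733, 1491 and 1343 in DekTg, against 1497, 2265, 1434 and 1445 in DekCon, with a log2 fold change of -0.16 (SE 0.15), and 0.00 without DekCon replicate 2. The groups overlapped. Mcm7 had 699, 683, 682 and 714 in DekTg, against 740.3, 1025, 723 and 721 in DekCon, so every DekTg library lay below every DekCon library, by a narrow margin. It had a log2 fold change of -0.19 (SE 0.13, limma adjusted p = 0.789) and -0.07 without DekCon replicate 2. Mcm7 and Gins2 were the 2 of 32 genes whose groups did not overlap, both lower in DekTg. Without overlap, 1.88% of all genes were lower and 2.09% higher, and 4.42% of genes with a mean of at least 100 were lower. The count over the 32 genes was 7 without DekTg replicate 2 and 6 without DekCon replicate 4. With fewer libraries in a group such separation comes about more readily, and the share of all genes was not taken there. Mcm7 (GRCm38 chromosome 5, 138164583 to 138172422, minus strand) also hosts the microRNA genes Mir25, Mir93 and Mir106b.

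The make-up of the ring transcripts within a library does not depend on how libraries are scaled. It does depend on the gene length used, which here is that of all exons. Averaged over all libraries, Mcm2 was at 87.0 per kilobase of all exons, last of the ring. With the longest coding transcript it was at 179, above Mcm5 (147) and Mcm4 (133). Summed per kilobase, MCM2-7 came to 905 to 1001 in DekTg and 978 to 1566 in DekCon, where 1566 was DekCon replicate 2 and the next highest was 1036. Mcm6 held 32.9 ± 2.9% of the sum in DekTg and 31.0 ± 0.6% in DekCon (SD, n = 4 each), and Mcm2 held 7.99 ± 0.89% in DekTg and 8.38 ± 0.79% in DekCon. In DekCon replicate 2, the library with the highest sum, Mcm6 held 31.0%, within the range of the other DekCon libraries, but Mcm2 held 9.55%, against 7.83 to 8.13%, and Mcm7 held 14.8%, against 16.1 to 16.7%. In reads Mcm2 made up 14.9% there (95% Wilson interval 14.1 to 15.8%), above the intervals of the other 3 DekCon libraries, which ended at 13.7% or lower. DekTg replicate 2 also stood apart. Mcm6 held 37.1% there, against 31.1 to 32.2% in the other DekTg libraries, and Mcm5 held 8.95%, against 12.4 to 12.9%. In reads, Mcm6 made up 1443 of 3683 MCM2-7 reads in that library (39.2%, 95% Wilson interval 37.6 to 40.8%) and Mcm5 298 (8.09%, 7.25 to 9.02%), intervals that cover counting error only.

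**Figure D3:**
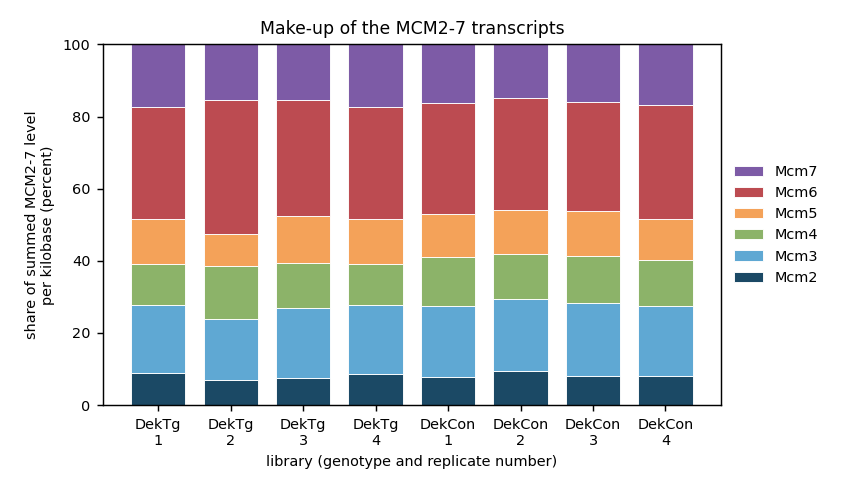
Share of each MCM2-7 gene in the summed level per kilobase (vertical axis, percent, bars add to 100) in the 4 DekTg and the 4 DekCon libraries (horizontal axis). Mcm6 holds 30.2 to 31.7% in DekCon and 31.1 to 37.1% in DekTg, with the highest share in DekTg replicate 2.

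Promoters of some of these genes carry motifs of the E2F transcription factors, which are known to drive S phase genes. RefSeq promoter windows (GRCm38.p6, 250 bases before to 50 after the gene start) were at hand for 25 of the 32 genes. The 8-base E2F motif was searched on both strands in 4 spellings, TTTCCCGC, TTTGGCGC, TTTGCCGC and TTTCGCGC, matches of which may overlap. It was present in 12 of the 25 genes (Orc1, Orc3, Cdc6, Cdt1, Mcm3, Mcm5, Mcm6, Mcm7, Mcm8, Mcmbp, Gins3 and Topbp1), against 2.60% of all 27025 genes with such windows. A match describes these letters only. Stretches from 170 bases to 1 base before the start are shown for the highest of the ring genes, for another ring gene whose matches overlap, and for the loading and recognition genes furthest from 0, read 5′ to 3′ on the gene's strand with every E2F match in capitals.
Mcm6, chr1:128359706-128359875, minus strand: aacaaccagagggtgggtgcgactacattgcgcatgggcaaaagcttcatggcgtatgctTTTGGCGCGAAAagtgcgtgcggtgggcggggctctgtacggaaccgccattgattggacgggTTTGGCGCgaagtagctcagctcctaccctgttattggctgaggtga
Mcm5, chr8:75109339-75109508, plus strand: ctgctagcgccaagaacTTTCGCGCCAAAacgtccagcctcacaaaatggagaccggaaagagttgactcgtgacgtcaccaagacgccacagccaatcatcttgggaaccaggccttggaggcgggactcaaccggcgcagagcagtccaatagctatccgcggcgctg
Cdc6, chr11:98907981-98908150, plus strand: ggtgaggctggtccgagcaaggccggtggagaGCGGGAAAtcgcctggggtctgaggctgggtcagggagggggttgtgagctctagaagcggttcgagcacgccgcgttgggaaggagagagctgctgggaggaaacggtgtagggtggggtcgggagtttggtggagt
Orc1, chr4:108579284-108579453, plus strand: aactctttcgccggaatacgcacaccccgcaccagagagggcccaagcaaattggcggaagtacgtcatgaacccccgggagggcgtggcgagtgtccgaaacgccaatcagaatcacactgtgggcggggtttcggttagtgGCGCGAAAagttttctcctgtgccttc

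In these windows Mcm6 had 3 matches and Mcm5 had 2, with an overlapping pair on opposite strands in each. Cdc6 and Orc1 had 1 each, both on the opposite strand. Among genes with log2 fold changes nearer to 0 than -0.12 and a window, Dbf4, Mcm9, Orc5, Wdhd1, Ticrr and Orc2 had no match, while Orc3 and Topbp1 had 1 each. Further from 0, Cdc7, Mcm10, Orc6, Mcm2, Cdc45, Orc4 and Donson also had no match. The rest of the genes with a match lay there too, and a link between match and fold change was not tested.

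Of the MCM-named genes outside the ring, Mcmbp was the most abundant. Its product binds MCM subunits and helps to assemble the ring. Counts of Mcmbp were 613, 922, 695 and 512 in DekTg, against 844, 999.99, 807 and 834 in DekCon. DekTg replicate 2 was high, and the other 3 DekTg libraries lay below all DekCon libraries (log2 fold change -0.37, SE 0.16, limma adjusted p = 0.711, and -0.24 without DekTg replicate 4). Mcm10, a factor that acts when the helicase is activated, had 156, 253, 198 and 165 in DekTg, against 193, 411, 257 and 199 in DekCon. The groups overlapped in part, with DekCon replicates 2 and 3 above every DekTg library and DekTg replicates 1 and 4 below every DekCon library. Its log2 fold change was -0.41 (SE 0.21), and -0.18 without that library. Mcm8, which with MCM9 works in homologous recombination and not in licensing, had 52.7, 73.3, 64.05 and 34.6 in DekTg, against 64.7, 75.6, 82.0 and 57.9 in DekCon (log2 fold change -0.35, SE 0.22, and -0.14 without DekTg replicate 4), with overlapping groups. Mcm9 had the log2 fold change nearest to 0 of the 32, with values of 80.5 to 91.5 in DekTg and 81.0 to 95.1 in DekCon (log2 fold change -0.02, 95% interval -0.33 to 0.29).

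Gins2, a subunit of the GINS complex that binds MCM2-7 at firing, had the smallest p of the 32 genes. Its counts were 234, 231, 251.3 and 234 in DekTg, against 276, 375, 292 and 300.2 in DekCon. The DekTg libraries lay close together and all below the lowest DekCon library. Gins2 averaged 238 ± 9.35 in DekTg and 311 ± 44 in DekCon (SD, n = 4 each), with a log2 fold change of -0.38 (SE 0.13, 95% interval -0.65 to -0.11). Its limma adjusted p was 0.711, with a range of 0.238 to 0.93 over the alternatives. Gins2 (GRCm38 chromosome 8, 120578633 to 120589304, minus strand) overlaps Gse1 on the other strand, and the sources used here do not give the strand setting of the counting. In all, 14 of the 32 genes overlap an annotated gene on the other strand.

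The other 4 genes of the group overlapped between genotypes. Gins3 had 86.5, 111, 109 and 64.05 in DekTg, against 103, 116, 107 and 127 in DekCon, with DekTg replicate 4 lowest and overlapping groups (log2 fold change -0.32, SE 0.18, and -0.16 without that library). Gins1 values were 35.7 to 50.5 in DekTg, against 34.7 to 70.8 in DekCon (-0.26, 95% interval -0.74 to 0.22, and -0.11 without DekCon replicate 2). Gins4 values were 75.6 to 97.3 in DekTg, against 78.7 to 141 in DekCon (-0.23, -0.63 to 0.17, and -0.06 without DekCon replicate 2). Cdc45, whose product travels with GINS and MCM2-7 at the fork, had 74.2, 103, 99.96 and 83.99 in DekTg, against 88.7, 173, 103 and 85.7 in DekCon. Only DekCon replicate 2 stood out, and the log2 fold change of -0.27 (SE 0.21) was -0.04 without it.

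The kinase that fires origins and its activator differed in how far they lay from 0. CDC7 is the catalytic subunit and DBF4 the regulatory subunit without which it is inactive. Cdc7 had 229.9, 314, 269.8 and 248 in DekTg, against 344, 479, 319 and 294 in DekCon. All DekTg libraries but replicate 2 lay below all DekCon libraries, with a log2 fold change of -0.42 (SE 0.16, 95% interval -0.75 to -0.09, limma adjusted p = 0.711), or -0.27 without DekCon replicate 2. Dbf4 had 192, 187, 192 and 166 in DekTg, against 166, 217, 185 and 157 in DekCon, fully overlapping, with a log2 fold change of 0.03 (SE 0.14, 95% interval -0.26 to 0.32). Within a library the log2 ratio of Dbf4 to Cdc7 was -0.26, -0.74, -0.49 and -0.58 in DekTg, against -1.05, -1.14, -0.79 and -0.90 in DekCon. The 4 DekTg ratios all lay above the 4 DekCon ratios, with a narrow gap between DekTg replicate 2 and DekCon replicate 3, and this ratio does not depend on the scaling of libraries. It averaged -0.52 ± 0.20 in DekTg and -0.97 ± 0.16 in DekCon (SD, n = 4 each). The pair was looked at after the values were known and out of 5 ratios, so no test is given.

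**Figure D4:**
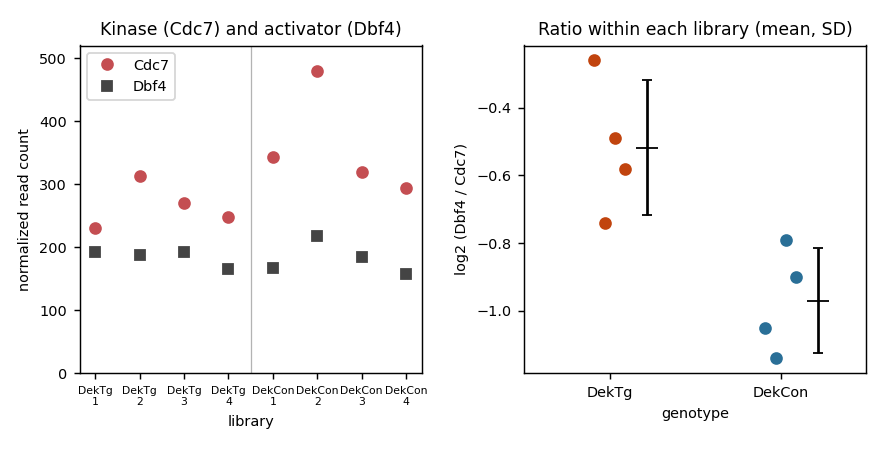
Left, normalized read count (vertical axis, from 0) of Cdc7 (circles) and Dbf4 (squares) in each library (horizontal axis), and right, the log2 ratio of Dbf4 to Cdc7 by genotype, with one point per library and the mean and SD beside it. The DekTg ratios run from -0.74 to -0.26 and the DekCon ratios from -1.14 to -0.79.

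The firing factors were split in direction, with 3 of 6 above 0, 3 below and a median log2 fold change of 0.00, or 0.10 without DekCon replicate 2. TICRR (Treslin) and MTBP form the complex through which cyclin-dependent kinases trigger firing. Ticrr had 172, 148, 169.8 and 159.6 in DekTg, against 124, 174, 155 and 156 in DekCon, with overlapping groups (log2 fold change 0.10, SE 0.14, and 0.0039 without DekCon replicate 1). Mtbp values were 74.999 to 87.7 in DekTg and more widely spread, 56.3 to 104, in DekCon (0.09, 95% interval -0.34 to 0.52). TOPBP1 binds phosphorylated TICRR and helps to bring GINS to the origin. Topbp1 had 365, 429, 438 and 342 in DekTg, against 429.8, 504, 371 and 402 in DekCon, and overlapped (log2 fold change -0.12, SE 0.13, and -0.03 without DekCon replicate 2).

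Donson, whose product helps to place GINS and CDC45 on the helicase in frog and human systems, had 28.8, 46.8, 34.9 and 42.0 in DekTg, against 45.6, 41.1, 42.4 and 41.7 in DekCon. The DekCon libraries lay close together inside the wider DekTg range (log2 fold change -0.18, SE 0.20, and -0.06 without DekTg replicate 1). Recql4 values were 14.4 to 30.5 in DekTg, against 16.5 to 29.7 in DekCon (0.13, 95% interval -0.47 to 0.73), and its lowest value rests on 12 reads. Wdhd1, which links the helicase to DNA polymerase alpha, had values of 209 to 334 in DekTg, against 231 to 372 in DekCon (-0.09, -0.44 to 0.26).

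Libraries of one genotype also differed from each other. DekCon replicate 2 had the highest value of the 8 libraries for 24 of the 32 genes. Against the mean of the other 3 DekCon libraries its median log2 difference was 0.50 over the 32 genes, 0.64 over MCM2-7 and 0.61 over CDC45 and GINS, and it was 0.13 over genes with a mean of at least 100. Mcm10 (0.93), Cdc45 (0.90) and Mcm2 (0.89) stood furthest above the other DekCon libraries, while Orc4 (-0.18), Mcm9 (-0.08) and Donson (-0.07) did not stand above them. In the same library all 16 genes of a proliferation list, among them Mki67 and Top2a, lay above the other DekCon libraries (median 0.87). Lineage markers stood apart in that library as well. The erythroid factor Klf1 was at 231, against 36.8 to 95.2 in the other DekCon libraries, and the megakaryocyte integrin Itga2b at 3859, against 1225 to 1664. Lower there were the lymphoid-primed progenitor receptor Flt3 (161, against 385 to 847), the stem cell marker Procr (13.4, against 40.5 to 73.5) and the immunoglobulin gene Ighm (14.3, against 362 to 545). The part of proliferation or of these cell types in the origin gene values was not tested.

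DekTg replicate 2 lay above the mean of the other DekTg libraries for 24 of 32 origin genes, with a median log2 difference of 0.27. All 6 genes of the origin recognition complex lay above that mean (median 0.40), with Orc1 at 0.97, and so did all 4 MCM-named genes outside the ring. The ring itself did not (median -0.07), with Mcm4 at 0.43 and Mcm6 at 0.33 but Mcm5 at -0.40 and Mcm2 at -0.14, and Cdt1 lay at -0.60. Replicates 1 and 4 of each genotype resembled each other more than other pairs did. Their reads differed by 1.67 times the counting variance in DekTg and 1.58 times in DekCon, against 3.62 to 7.83 times for the other pairs of a genotype. This exceeds counting variance alone. Amplified cDNA from the same cells could exceed it too, so it does not show that replicates 1 and 4 are independent. They were counted as separate libraries.

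**Figure D5:**
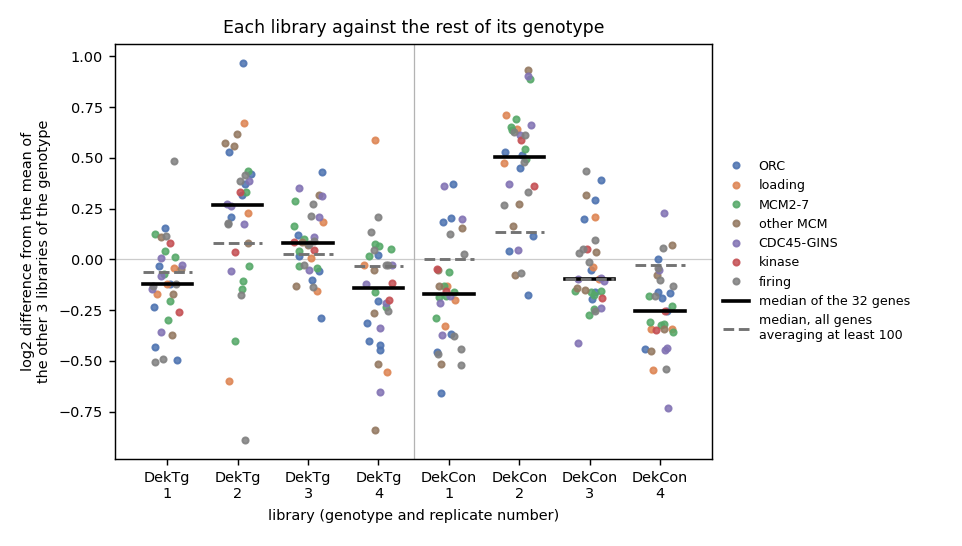
Log2 difference of each of the 32 genes (points, coloured by role) in each library (horizontal axis) from the mean of the other 3 libraries of its genotype (vertical axis). Solid lines mark the median of the 32 genes and dashed lines that of all genes averaging at least 100, and the widest gap between them is in DekCon replicate 2, at 0.50 and 0.13.

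Across the proliferation list, 16 of 16 genes had log2 fold changes below 0 between the genotypes, with summed levels of 3506 to 5230 in DekTg and 4344 to 8943 in DekCon. The list's median was -0.32, and -0.11 without DekCon replicate 2. Its 2 genes past the threshold, Cdk1 and Cdc20, are among those with values that are not whole reads.

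None of the genes in 4 related lists passed the threshold. Of 34 genes of the replication fork and DNA synthesis, 34 lay below 0, with a median of -0.26, or -0.14 without DekCon replicate 2. Pold2, part of the lagging-strand polymerase delta, had -0.56 (limma adjusted p = 0.711) and the fork protector Timeless had -0.48 (0.711). Of 16 S phase kinases, cyclins and their brakes, 11 lay below 0 and 5 above, with a median of -0.09, or -0.05 without DekCon replicate 2. Ppp1cb, a catalytic subunit of the phosphatase that opposes CDC7, had -0.34 (limma adjusted p = 0.711) and Cdk2, the kinase that partners cyclin E, had -0.32 (0.711). All 15 tested genes of the E2F and RB families lay below 0 (median -0.18, or -0.09 without DekCon replicate 2), with Tfdp1, the partner of E2F proteins, at -0.36 (limma adjusted p = 0.717) and E2f4 at -0.31 (0.758). Of 14 genes that destroy licensing factors or prepare chromatin for them, 12 lay below 0 (median -0.18, or -0.075 without that library). Fzr1, an activator of the anaphase-promoting complex in G1, had -0.63 (limma adjusted p = 0.711), and Fbxo5, an inhibitor of that complex, had -0.52 (0.717).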

How the data were processed

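The authors deposited 1 table with 1 signal column per library. Its name says FPKM, but 99.994% of its 417792 deposited values are whole multiples of a single step per library (tolerance 0.001 reads), and the steps match DESeq2 size factors computed from the recovered reads, so the values were read as gene counts divided by a size factor. The columns headed DenCon were taken as DekCon. The submitters' processing notes name build mm10 and, with no order, the tools DESeq2, HTSeq, Cufflinks 2.1.1 and Bowtie 0.12.9; no source used here gives the annotation or strand setting. Per the labels, cDNA was amplified by the Geo-seq method, without stated molecular identifiers.

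Genes with a value of at least 1 in at least 4 of 8 libraries were tested on log2(value + 1), which understates changes of low genes, with limma 3.58.1 (trend, Benjamini-Hochberg; R 4.3.3). The count tests, as alternatives, were DESeq2 1.42.0 and edgeR 4.0.16 (9 genes called) on recovered reads, leaving out the 6 genes with values that are not whole. The limma, edgeR and DESeq2 steps were tested on simulated data. Replicate numbers of the 2 genotypes did not pair libraries (same-number correlations of deviations 0.02 to 0.11). Exon lengths are from GENCODE M21 on GRCm38. The members and lists were chosen with earlier results of these data known. All 32 members are named; values in every library are given for MCM2-7, role groups of up to 3 genes and the 3 members of smallest p in other groups (23 genes). Each pathway list shows its 2 genes of smallest p. One listed gene, of the E2F and RB list, was not matched by symbol in the table.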

Additional observations from a re-analysis of the deposited data

Results flagged for a closer look

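In groups of 4 libraries, 7 of 64 sets of values (32 genes in 2 genotypes) had a highest library far from the rest by Dixon's criterion, where chance flags about 1 in 20, and the genes share their libraries. Of the 7, 5 are MCM2-7 genes in DekCon replicate 2: Mcm2 at 1040.2, Mcm3 at 1175, Mcm5 at 772, Mcm6 at 2265 and Mcm7 at 1025. Orc1 stood apart in DekTg replicate 2, at 62.5. Gins2 stood apart in DekTg replicate 3, at 251.3, where the other 3 DekTg libraries lay at 231 to 234.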

How the results depend on the processing

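None of the 32 genes passed in any of the 25 alternatives. Their median log2 fold change stayed below 0 in all of them, at -0.33 to -0.10 on leaving out 1 library, and below the median of genes with a mean of at least 100 (difference -0.15 as reported, -0.03 without DekCon replicate 2). The number of genes whose groups do not overlap was 1 with TMM scaling, total scaling or quantile normalization. It was 6 with libraries 1 and 4 averaged and 2 to 7 on leaving out 1 library. Averaging or leaving out libraries makes separation easier, and the share over all genes was not taken for any of these settings. With the replicate number as a block, which the libraries do not share beyond the number, 0 genes passed, the median was -0.25 and the smallest adjusted p was 0.302; 15 genes of the whole table passed, against 13.

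Signs changed for 10 genes, whose values as reported lay between -0.16 and 0.13; the cause was not tested. With total scaling Orc3 was at 0.0201, Orc5 at 0.0331 and Mcm9 at 0.064. With quantile normalization Orc3 was at 0.0231, Orc5 at 0.0405, Mcm6 at 0.0317, Mcm9 at 0.0169, Topbp1 at 0.0008 and Wdhd1 at 0.0052. With libraries 1 and 4 averaged Orc5 was at 0.0317, Mcm9 at 0.0011, Dbf4 at -0.0034, Mtbp at -0.0245 and Recql4 at -0.0227. On leaving out 1 library the ranges were -0.22 to 0.0219 for Orc2, -0.20 to 0.059 for Orc3, -0.16 to 0.0563 for Orc5, -0.24 to 0.0022 for Mcm6, -0.0581 to 0.0179 for Mcm9, -0.0319 to 0.12 for Dbf4, -0.046 to 0.25 for Mtbp and -0.20 to 0.0369 for Wdhd1. Depth limits the lowest genes most, such as Recql4. Leaving out the 6 genes with values that are not whole was chosen after seeing the data.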
